A study of Rattus norvegicus with 24 samples.

Results

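The circadian clock genes are described here across the lungs of 24 rats that inhaled hexanal or clean air. They were 10 genes chosen by name (Dbp, Tef, Per1, Per2, Per3, Nr1d1, Nr1d2, Ciart, Bmal1 and Npas2), of 15437 genes that the array's probes could be matched to by accession. All 10 were on the array, with 16 probes, and all 10 passed the filter on dim probes. They were chosen because of their levels across the 4 dose groups and because some of them varied in opposite directions, so these levels and relations are given as a description with no test. The rats were Fischer-344 rats of both sexes, 7 to 8 weeks old when the exposure began, after 5 days of acclimation. The control group breathed filtered clean air, and the other groups breathed hexanal, an aldehyde formed in lipid oxidation, at 600 ppm (low dose), 1000 ppm (middle dose) or 1500 ppm (high dose). Each group held 6 rats, 3 males and 3 females, and no transgene or other treatment was named. Exposure ran for 4 h per day on 5 days per week, for 5 weeks by the sample labels and 4 weeks by the published methods. The sample names give the doses in ppm, while the protocol in the labels gives the same figures in mg/m3. The time of day at which the lungs were collected is not given in the sources used here.

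The mammalian clock is a feedback loop inside cells. BMAL1, paired with CLOCK or NPAS2, binds E-box sequences and switches on the Per, Cry, Nr1d and Ciart genes and the genes of the PAR bZIP factors DBP and TEF. PER and CRY proteins then restrain that pair, and NR1D1 and NR1D2 (REV-ERB alpha and beta) repress Bmal1 and Npas2 through ROR elements, so that Bmal1 and Npas2 peak at the opposite time of day to Dbp and Nr1d1. The lung has such a clock, in the airway epithelium among other cells.

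The sequences before the transcription starts of Ciart, Per2 and Bmal1 are shown because they held the motifs of both arms of this loop, E-boxes and a D-box on one side and a ROR element on the other. The windows of Dbp, Per1, Per3, Nr1d2 and Npas2 held none of the motifs searched. They come from RefSeq (build GRCr8) and are the 250 bases before the annotated start, 5′ to 3′ on the gene's strand. Capitals mark the motifs searched on both strands: CACGTG (E-box), CACGTT (E′-box), TTATGTAA (D-box) and TAGGTCA (the core of a ROR element).
Ciart, chr2:186112247-186112496, minus strand: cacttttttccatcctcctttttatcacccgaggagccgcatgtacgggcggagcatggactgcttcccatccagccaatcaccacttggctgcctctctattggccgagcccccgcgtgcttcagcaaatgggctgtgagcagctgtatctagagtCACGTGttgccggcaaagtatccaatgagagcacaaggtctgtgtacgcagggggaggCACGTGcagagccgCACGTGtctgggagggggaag
Per2, chr9:99496994-99497243, minus strand: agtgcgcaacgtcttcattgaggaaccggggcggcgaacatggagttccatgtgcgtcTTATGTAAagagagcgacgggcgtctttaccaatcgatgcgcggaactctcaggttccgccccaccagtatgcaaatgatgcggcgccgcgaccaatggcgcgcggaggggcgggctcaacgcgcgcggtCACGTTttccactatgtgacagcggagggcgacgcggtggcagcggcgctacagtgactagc
Bmal1, chr1:176766078-176766327, plus strand: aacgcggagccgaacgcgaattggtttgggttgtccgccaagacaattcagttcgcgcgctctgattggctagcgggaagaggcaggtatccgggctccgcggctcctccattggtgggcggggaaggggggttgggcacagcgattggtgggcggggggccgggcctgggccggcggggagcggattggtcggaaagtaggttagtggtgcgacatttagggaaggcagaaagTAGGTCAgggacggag
The Ciart sequence held 3 E-boxes, the nearest starting 21 bases before the start, and Per2 held an E′-box and a D-box. Of the 10 members, 3 had CACGTG within 300 bases around a start (Ciart, Nr1d1 and Tef) against 6.42% of 33469 rat promoters of this length, and 2 had CACGTT (Nr1d1 and Per2) against 4.83%. Nr1d1 had these motifs in different windows, at different starts. Members are counted here by gene and all rat promoters by window, so the shares are not fully alike. TTATGTAA stood in Per2 and in 0.89% of promoters, and TAGGTCA stood in Bmal1, starting 16 bases before the start, and in 2.63%. None of the members' windows held TTACGTAA, TGGGTCA or TGACGTCA. CACGTG and CACGTT share their first 5 letters but never the same site. A match is a string of letters and not a measured binding site.

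The arrays lay on 6 slides of 4 arrays, each slide held rats of 1 sex, and no slide held both control and 1500 ppm rats. Slide 1 held the 3 control males and 600 ppm rat 6, slide 3 held 600 ppm rats 7 and 8 with 1000 ppm rats 11 and 12, and slide 5 held 1000 ppm rat 13 with the 3 males at 1500 ppm. Slides 2, 4 and 6 held the females in the same way (control rats 21, 22 and 23 with 600 ppm rat 26, then 600 ppm rats 27 and 28 with 1000 ppm rats 31 and 32, then 1000 ppm rat 33 with the 1500 ppm rats). All 24 arrays were scanned on 1 day, and whether the slides also mark when rats were killed or RNA was extracted is not given in the sources used here. The 8 lung markers were well above background on all 24 arrays. The 75th percentile of the signal ranged from 1701 to 3130 and 70.7% to 81.9% of probes were well above background.

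Dbp, which encodes a PAR bZIP activator driven directly by BMAL1, differed more between control and high-dose rats than any other member. Its level, on the log2 scale relative to the array's 75th percentile, was 0.20, -0.51 and 0.58 in control males and 0.75, 2.39 and 2.26 in control females. At 600 ppm it was 0.06, -0.02 and 0.29 in males and 0.72, 3.04 and 3.01 in females. At 1000 ppm it was 0.29, 0.45 and 2.99 in males and 2.77, 1.96 and 1.82 in females, and at 1500 ppm 3.44, 2.17 and 3.56 in males and 3.12, 3.06 and 2.68 in females. Low values came from the males of the first 3 groups other than rat 13, and from rats 21 and 26 among the females, and the control and 1500 ppm groups overlapped only through rats 22, 23 and 17. The group means were 0.94 ± 1.15, 1.18 ± 1.45, 1.71 ± 1.14 and 3.00 ± 0.51 (SD, n = 6) from control to 1500 ppm, and the high-dose rats differed from control by 2.06 with a standard error of 0.61. The means were in the order of dose, but the steps from control to 600 ppm and from 600 to 1000 ppm were smaller than the SD, and the last step of 1.29 was larger than the SD of 1.14. All 3 Dbp probes gave this pattern, with differences of 2.06, 1.79 and 2.00 at 1500 ppm.

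Bmal1, the activator at the head of the loop, ran the other way. It was 0.57, 0.59 and 0.42 in control males and 0.31, -0.14 and -0.02 in control females. At 1500 ppm it was -0.92, -0.21 and -1.07 in males and -0.89, -0.75 and -0.69 in females. All 6 high-dose values lay below all 6 control values. Between them, the 600 ppm rats ranged from -0.55 to 0.63 with a median of 0.45 and the 1000 ppm rats from -0.82 to 0.50 with a median of 0.11. The means were in the reverse order of dose, from 0.29 ± 0.31 in control to 0.17 ± 0.54, -0.03 ± 0.53 and -0.76 ± 0.30 (SD, n = 6), only the last step being larger than the SD, and the difference at 1500 ppm was -1.04 (SE 0.24). The second Bmal1 probe differed by -1.14.

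**Figure D1:**
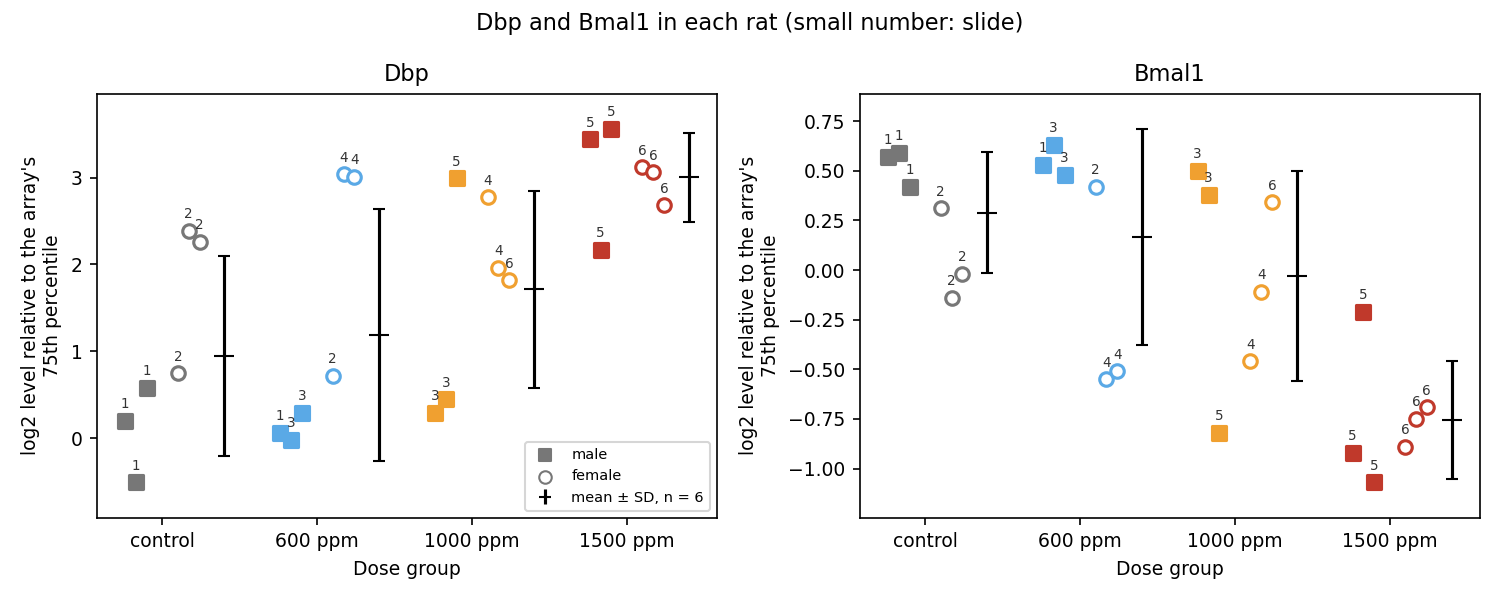
Level of Dbp (left) and Bmal1 (right) in each rat, on the log2 scale relative to the array's 75th percentile, by dose group, with males as filled squares, females as open circles, the slide as a small number and the group mean ± SD (n = 6) as a black bar. At 1000 ppm the male on slide 5 had Dbp at 2.99 and the 2 males on slide 3 had 0.29 and 0.45.

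Npas2, the partner that can take the place of CLOCK, followed Bmal1. Its lowest, median and highest levels were 0.01, 0.37 and 0.82 in control, -0.39, 0.40 and 0.57 at 600 ppm, and -0.56, 0.22 and 0.55 at 1000 ppm. In the high-dose rats they were -1.07, -0.68 and -0.02. All high-dose rats lay below all control rats, with a difference of -0.95 (SE 0.22). The dimmer Npas2 probe did not follow: its difference was 0.18 and its correlation with the brighter probe was 0.03 over the 24 arrays, so the 2 probes of this gene disagree.

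Nr1d1 and Nr1d2, the repressors of Bmal1, were higher in the high-dose group by 1.53 (SE 0.56) and 0.96 (SE 0.31). Nr1d1 was -2.94, -4.70 and -2.57 in control males, against -0.94, -0.29 and -0.53 in control females. At 1500 ppm it was 0.34, -0.55 and 0.17 in males and -0.37, -1.13 and -1.26 in females. The control males were the 3 lowest of the 24 rats, 600 ppm rats 8 and 7 coming next at -2.55 and -2.05. Nr1d2 had lowest, median and highest levels of -4.10, -3.23 and -2.34 in control and -2.54, -2.20 and -1.89 at 1500 ppm, so these groups overlapped, and the 600 and 1000 ppm groups had medians of -3.08 and -2.82.

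Of the 3 Per genes, whose proteins restrain BMAL1, Per2 showed the widest range when each gene was read on its brightest probe. Its lowest, median and highest levels were -2.85, -2.11 and -1.57 in control, -2.77, -2.27 and -0.81 in low-dose rats, -2.70, -1.83 and -1.25 in middle-dose rats and -1.58, -1.15 and -0.46 in high-dose rats. The control and high-dose groups overlapped by 0.01, and their means differed by 1.09 (SE 0.33). Per3 differed by 0.33 (SE 0.17) on its brightest probe, from -2.32 ± 0.38 to -1.99 ± 0.11, and by 0.79 and 1.12 on its other probes. The dimmest Per3 probe, well above background on 22 arrays, spanned -7.03 to -3.68, a wider range than that of Per2. Per1 had means of -4.50, -4.55, -4.50 and -4.63 in the 4 groups with SDs from 0.16 to 0.27, and no neighbouring groups in its order differed beyond their spread.

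Tef, a PAR bZIP factor like Dbp, had medians of 0.75, 1.15, 1.46 and 1.60 from control to 1500 ppm. Its control values ranged from 0.08 to 1.78 and its high-dose values from 0.99 to 2.46, so the groups overlapped, and the difference was 0.87 (SE 0.33). Ciart, a repressor of CLOCK and BMAL1 (also called CHRONO), was dim. It was well above background on 3, 2, 3 and 5 of the 6 arrays of the control, 600, 1000 and 1500 ppm groups and passed the filter through the 1500 ppm group alone. Its means were -6.69 ± 0.89, -6.63 ± 0.80, -6.25 ± 0.79 and -5.41 ± 0.57 (SD, n = 6), with a difference of 1.28 (SE 0.42) at 1500 ppm.

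Counted by the study's threshold for expression (a fold of at least 1.5 with an unadjusted p under 0.05), 0 of the 10 members passed at 600 ppm, where 0.607% of 21264 genes and unnamed probes did. At 1000 ppm 1 passed (Nr1d1, higher by 1.28 on the log2 scale), against 1.63% of all tested. At 1500 ppm 8 passed, 6 higher (Dbp, Tef, Per2, Nr1d1, Nr1d2 and Ciart) and 2 lower (Bmal1 and Npas2), against 1.23% of all tested, 0.701% higher and 0.531% lower. The members were chosen on this contrast, so nothing is read from these counts. The 3 dose comparisons share the control rats. Of the 30 steps between neighbouring groups in the members' orders, 6 were larger than the SD, and 5 of these set the 1500 ppm group apart from its neighbour (Dbp, Per2, Ciart, Bmal1 and Npas2), the other being Nr1d1 between 600 and 1000 ppm. In bulk tissue, fewer cells of a type and less RNA per cell cannot be told apart.

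Within the males, most members fell into 2 sets of levels that followed the slide, with 1000 ppm rat 13 beside the high-dose males. Dbp was 2.17 to 3.56 on slide 5 and -0.51 to 0.58 on slides 1 and 3, a difference in means of 2.87. Bmal1 was -1.07 to -0.21 on slide 5 and 0.38 to 0.63 on slides 1 and 3. Of the 10 members, 7 had no overlap between these sets of 4 and 8 males: Dbp, Per3, Nr1d1, Nr1d2 and Ciart were higher on slide 5, and Bmal1 and Npas2 were lower. Ciart was not well above background in 6 of the 8 males of slides 1 and 3, so its levels there are only upper bounds. Of all genes and probes tested, 5.46% had no overlap, 4.3% being higher on slide 5 and 1.16% lower. This split was noticed in the same data and is a description, and slide 5 also held all 3 high-dose males.

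**Figure D2:**
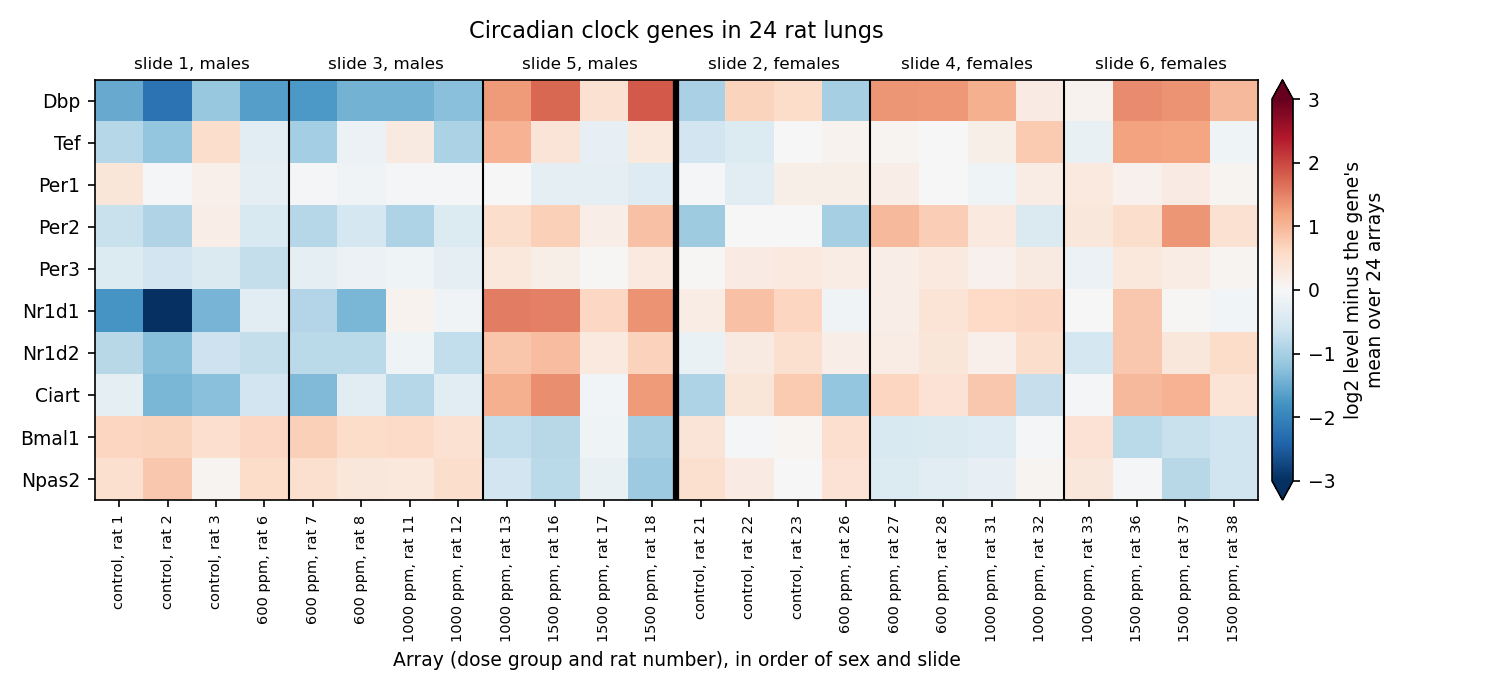
Level of the 10 clock genes in each of 24 arrays, as the log2 level minus the gene's own mean over the arrays, with columns in order of sex and slide (thick line between males on the left and females on the right). All males of slides 1 and 3 are below the mean in Dbp and above it in Bmal1 and Npas2, and the males of slide 5, 1000 ppm rat 13 among them, are the reverse.

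The middle-dose males were split in this way at a single dose. Dbp was 2.99 in rat 13 on slide 5 and 0.29 and 0.45 in rats 11 and 12 on slide 3. Rat 13 exceeded the mean of the other two by 2.63, the difference ranking 23 of 12497 named genes by size, while 2.58% of these genes differed by more than 1. It also exceeded them in Nr1d1 by 1.55, Tef by 1.38, Nr1d2 by 1.28 and Per2 by 1.19, and lay below them in Bmal1 (-1.26) and Npas2 (-1.01). Per1 differed by 0.04. Ciart was -5.17 in rat 13 and -6.58 in rat 12, and it was not well above background in rat 11. The 600 ppm males, on slides 1 and 3, were not split, the later slide differing by 0.07 in Dbp and 0.03 in Bmal1. The middle-dose females went the other way in most members but not in all. Rat 33 on slide 6 differed from rats 31 and 32 on slide 4 by -0.55 in Dbp, -0.87 in Nr1d2 and 0.63 in Bmal1. Tef (-0.72), Nr1d1 (-0.62), Per3 (-0.37) and Npas2 (0.42) also went the other way. Per2 (0.40) and Per1 (0.24) had the same sign as in the males. Ciart was not well above background in rats 32 and 33. Within slide 5 the high-dose males differed from rat 13 by -0.88 in Tef, -0.38 in Nr1d1, 0.06 in Dbp and 0.09 in Bmal1, the other members lying between -0.31 and 0.07. Within slide 3 the middle-dose males differed from the low-dose males by 0.24 and -0.12. With 1 to 3 rats on each side these differences have no test.

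In males Nr1d1 also stood apart between doses on shared slides. It was -1.50 in 600 ppm rat 6 and -3.40 on average in the control males beside it, a difference of 1.90 that ranked 76 of 12497 by size. On slide 3 the 1000 ppm males exceeded the 600 ppm males by 1.12, which ranked 110. In females the same comparisons gave -0.68 on slide 2 and 0.31 on slide 4.

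Among the females, 600 ppm rat 26 on slide 2 stood apart from rats 27 and 28 on slide 4 in some of the members. The latter exceeded it by 2.30 in Dbp and 1.85 in Per2, and lay below it in Bmal1 (-0.95) and Npas2 (-0.81). Ciart was -5.59 and -5.82 in rats 27 and 28 and not well above background in rat 26. The other members were not split in this way: Nr1d1 differed by 0.40, Nr1d2 by 0.08, Per3 by 0.02, Tef by -0.06 and Per1 by -0.08. Slide 2 was itself mixed, since control rat 21 had Dbp at 0.75 and Bmal1 at 0.31, near rat 26, while control rats 22 and 23 had Dbp at 2.39 and 2.26. Between doses on a shared slide the females went both ways. On slide 2, rat 26 differed from the mean of the controls by -1.08 in Dbp, -0.64 in Per2 and 0.37 in Bmal1. On slide 4 the 1000 ppm females differed from the 600 ppm females by -0.66 in Dbp, -0.92 in Per2 and 0.24 in Bmal1. Not all members moved with Dbp: Tef differed by 0.42 and 0.45 on slides 2 and 4, and Nr1d2 by 0.02 and 0.05. On slide 6, the 3 high-dose females exceeded middle-dose rat 33 by 1.13 in Dbp and by 1.09 in Nr1d2, and Bmal1 differed by -1.12.

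With the slide as a fixed block, which rests on the doses that share a slide, the difference at 1500 ppm was -0.17 (SE 0.75) for Dbp, -0.51 (SE 0.60) for Per2, -0.22 (SE 0.89) for Ciart, -0.26 (SE 0.38) for Bmal1 and -0.17 (SE 0.40) for Npas2. It was 1.27 (SE 0.86) for Nr1d1, 0.76 (SE 0.44) for Nr1d2, 0.70 (SE 0.80) for Tef, 0.00 (SE 0.19) for Per3 and -0.32 (SE 0.24) for Per1, and 0 of 10 members passed the study's threshold. With the slide as a random block 5 did (Dbp, Nr1d1, Nr1d2, Bmal1 and Npas2), with Dbp at 1.59 (SE 0.65) and Bmal1 at -0.88 (SE 0.27). No slide held both groups, so the blocked values rest on slides linked through the low and middle doses.

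Dbp and Bmal1 moved against each other from rat to rat. Over the 12 females their correlation was -0.91 (Pearson) and -0.94 (Spearman), and -0.91 and -0.92 over the 10 without rats 21 and 26, the farthest from the median in Dbp. The males fell into 2 clusters in Dbp, so all males are not pooled in this paragraph. Over the 8 males of slides 1 and 3 the values were -0.77 and -0.90, and -0.90 and -0.89 over the 6 without rats 2 and 3. These rats share slides and, in the females, span all doses. Npas2 stood to Dbp at -0.81 in the 12 females and -0.84 in the 8 males, and Per2 and Ciart stood to Dbp at 0.91 and 0.91 in the females and 0.67 and 0.42 in the males. Ciart was well above background on 13 of the 24 arrays. In the 12 females 14 of the 16 pairs of one of the 8 other members with Bmal1 or Npas2 were negative, with a median of -0.52, and 22 of the 28 pairs among the 8 were positive, with a median of 0.36. Bmal1 and Npas2 stood at 0.84 in the 12 females and 0.50 in the 8 males. Over the 6 males without rats 2 and 3 this pair stood at 0.03, Dbp with Npas2 at -0.29, Dbp with Per2 at 0.35 and Dbp with Ciart at 0.64, so of the male values given the one for Dbp with Npas2, that for Dbp with Per2 and that for Bmal1 with Npas2 rested on those rats. Per1 had -0.02 with Dbp and 0.02 with Bmal1 in the females.

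**Figure D3:**
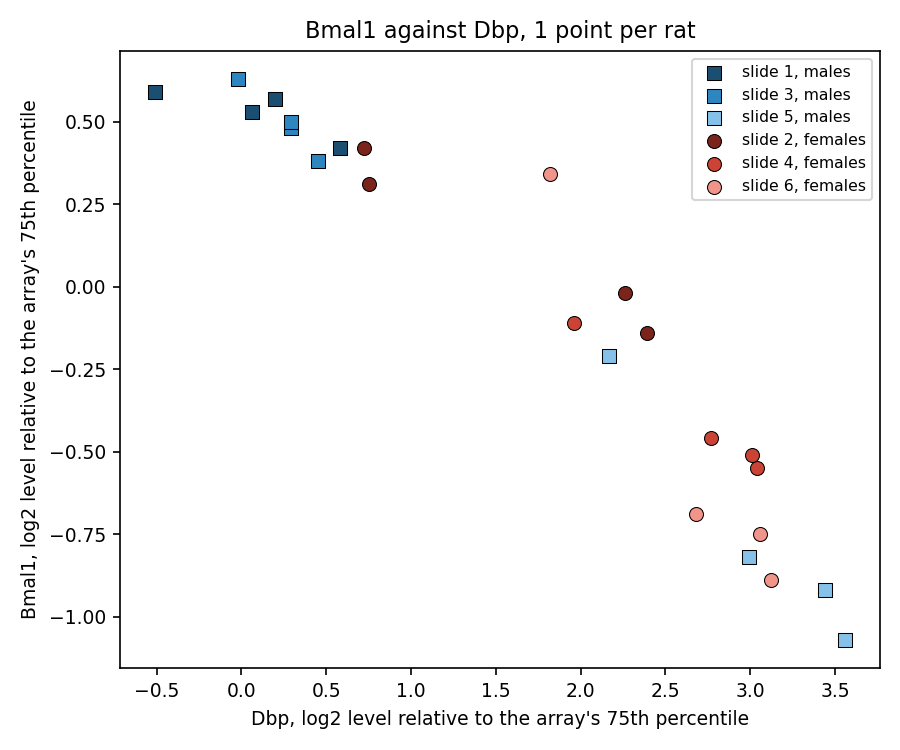
Bmal1 against Dbp, 1 point per rat, both on the log2 scale relative to the array's 75th percentile, with males as squares and females as circles coloured by slide. The points run from slides 1 and 3 at upper left (Dbp of at most 0.58) to slide 5 and the high-dose females at lower right.

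After the mean of each dose and sex was subtracted, Dbp stood over the 24 arrays at 0.87 to Per2, -0.95 to Bmal1 and 0.88 to Ciart, and Bmal1 at 0.82 to Npas2. Ciart was well above background on only 13 of these arrays, so its value rests in part on levels near the floor. Leaving out the 10 members, the genes most like Dbp were Tspan4 (Pearson 0.80), Rchy1 (0.78), Cbarp (0.77), Krt81 (0.76) and Pus7 (0.76), and those most opposite were Wdr45 (-0.87), Nfil3 (-0.78), Parg (-0.73), Eln (-0.73) and Syt17 (-0.71). For Bmal1, members again left out, the highest were Wdr45 (0.87), Nfil3 (0.86), Zdhhc12 (0.76), Trim16 (0.73) and Parg (0.71), and the lowest were Lhx6 (-0.82), Tspan4 (-0.80), Krt81 (-0.78), Ifrd2 (-0.78) and Kifc3 (-0.77). Without rat 13 the value for Wdr45 with Dbp was -0.83 and with Bmal1 0.83. With Dbp, Krt81 moved to 0.66, Nfil3 to -0.69, Cbarp to 0.70 and Tspan4 to 0.71. Rchy1 (0.78), Pus7 (0.76), Eln (-0.73), Parg (-0.72) and Syt17 (-0.73) changed little. With Bmal1, Zdhhc12 moved to 0.67, Krt81 and Ifrd2 to -0.68, Kifc3 to -0.69 and Tspan4 to -0.70. Lhx6 moved to -0.76 and Nfil3 to 0.80, while Parg (0.70) and Trim16 (0.76) changed little. In the 12 females alone Rchy1 had 0.02 with Dbp, so its likeness rested on the males. With Bmal1, Parg (0.29) and Trim16 (0.35) were also weak in the females, the weakest of the others being Krt81 at -0.51. Points that share a slide are not independent, and no test was made.

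The choice of the genes did not use sex itself, but the co-variation it drew on can take in differences between the sexes. Sex was tested with limma, with dose as a covariate. Dbp was lower in males by 1.17 on the log2 scale (a difference of -1.17, SE 0.36, adjusted p = 0.0226), with means of 1.12 ± 1.48 in males and 2.30 ± 0.85 in females (SD, n = 12). Per3 was lower in males by 0.36 (-0.36, SE 0.10, adjusted p = 0.00867) and Nr1d2 by 0.53 (-0.53, SE 0.19, adjusted p = 0.0424). As a description, these 3 gaps were wide in control and not at 1500 ppm. In control males and females the means were 0.09 and 1.80 for Dbp, -2.65 and -1.99 for Per3 and -3.74 and -2.63 for Nr1d2. At 1500 ppm they were 3.06 and 2.95 for Dbp, -2.01 and -1.97 for Per3 and -2.19 and -2.26 for Nr1d2. The other 7 members did not pass, Bmal1 being 0.34 higher in males with an adjusted p of 0.115. So 3 of 10 members passed at an adjusted p under 0.05, against 24.8% of all tested. With the slide as a random block 1 member passed (Per3, adjusted p = 0.025), Dbp had an adjusted p of 0.0618 and 13.2% of all tested passed. For Nr1d2, 17 of 24 fits that left out a rat lost the call. Each slide held 1 sex, so the slide could enter this comparison only as a random block. Markers of other cells also differed by sex, and their part in these differences was not tested. By limma, 3 of 5 T cell markers were lower in males, with summed levels, in multiples of the array's 75th percentile, of 1.64 to 2.60 in males and 2.14 to 3.85 in females. Of the erythroid markers 2 of 4 were higher in males (262 to 360 against 217 to 385), as were 3 of 8 lung markers (559 to 636 against 489 to 675) and 1 of 2 neutrophil markers (2.48 to 12.1 against 1.87 to 5.90). Of the 10 immediate early genes 1 was lower in males, and 0 of the heart muscle, skeletal muscle and adipose markers passed at an adjusted or an unadjusted p under 0.05.

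**Figure D4:**
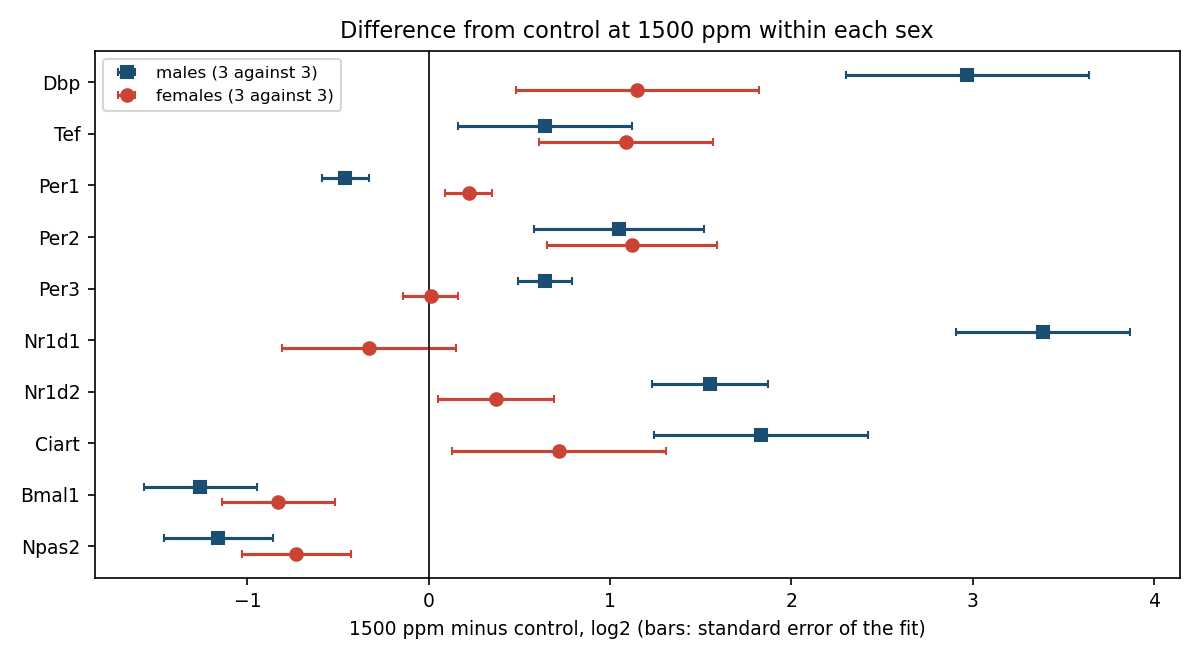
Difference between 1500 ppm and control within males (squares) and within females (circles), 3 rats against 3, on the log2 scale with the standard error of the fit, for each of the 10 clock genes. Nr1d1 stands at 3.39 in males and -0.33 in females, and Bmal1 and Npas2 lie below 0 in both sexes.

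The sexes differed in 2 members in how high-dose rats stood to controls, by the interaction term of limma. For Nr1d1 the difference was 3.39 in males and -0.33 in females (interaction -3.73, SE 0.68, adjusted p = 0.00453). For Per1 it was -0.46 in males and 0.22 in females (interaction 0.68, SE 0.18, adjusted p = 0.0343), on levels of -4.19, -4.61 and -4.40 in control males, -4.81, -4.85 and -4.93 in high-dose males, -4.60, -4.86 and -4.37 in control females and -4.42, -4.29 and -4.47 in high-dose females. Of all tested, 4.97% passed at 1500 ppm. With the slide as a fixed block the adjusted p was 0.312 for Nr1d1 and 0.362 for Per1, and with a random block 0.0209 and 0.102. With normexp background correction the interaction of Per1 was -0.264 (adjusted p = 0.86), and 9 of 24 fits without a rat lost the Per1 call. No gene on the array passed at 600 or 1000 ppm, where 5.02% and 9.43% of all tested and 2 and 3 of the members had an unadjusted p under 0.05. Counted within each sex, 1 member (Nr1d1) and 2 members (Nr1d1 and Nr1d2) passed the same threshold in males at 600 and 1000 ppm, against 1.23% and 2.22% of all tested, and 0 and 0 in females, against 1.78% and 4.71%. At 1500 ppm 8 members passed in males (4.8% of all tested) and 4 in females (Tef, Per2, Bmal1 and Npas2; 5.59% of all tested).

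Among the other genes of the clock pathway 1 passed the threshold at any dose. Of 22 other clock genes listed, 15 were on the array and 14 passed the filter, and the list was 7 higher and 7 lower at 1500 ppm, with a median difference of -0.01 beside 0.01 over all tested. Clock, the usual partner of BMAL1, differed by -0.15 (SE 0.19), and the repressors Cry1 and Cry2 by 0.11 (SE 0.18) and 0.24 (SE 0.13) at 1500 ppm, with limma adjusted p of 0.906, 0.932 and 0.762. The threshold of fold and unadjusted p was passed by 0, 0 and 1 of the 14 at 600, 1000 and 1500 ppm, against 0.607%, 1.63% and 1.23% of all tested, and 0 had a limma adjusted p under 0.05, against 0.0%, 0.0188% and 0.0047%. At an unadjusted p under 0.05 there were 0, 1 and 1. The PAR bZIP gene Hlf had no probe matched here.

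Nfil3, a bZIP repressor that competes with DBP and TEF for D-boxes, was the exception. It was -1.72, -1.92 and -1.60 in control males, -2.50, -3.08 and -2.94 in control females, -3.03, -2.67 and -3.40 in high-dose males and -3.36, -2.94 and -3.08 in high-dose females. Its difference at 1500 ppm was -0.79 (SE 0.31, limma adjusted p = 0.634). It was -1.29 (adjusted p = 0.0116) in males and -0.29 (adjusted p = 0.633) in females, and these were not shown to differ (interaction 1.00, adjusted p = 0.125). In males it too split by slide, with -3.40 to -2.67 on slide 5 and -1.92 to -1.37 on slides 1 and 3, and with the slide as a fixed block its difference at 1500 ppm was -0.10 (SE 0.28). Nfil3 was also higher in males than in females by 0.75 (SE 0.15, adjusted p = 0.00105), and Cry2 was lower (-0.30, SE 0.07, adjusted p = 0.00455). Of the 14 genes 5 passed for sex, 2 higher and 3 lower in males, against 24.8% of all tested. Cry1 was the single one of the 14 with an interaction of sex and dose at 1500 ppm (1.07, SE 0.29, adjusted p = 0.0365), on differences of -0.42 in males and 0.64 in females. Its adjusted p was 0.123 with the slide as a random block.

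Other genes with the smallest p at a dose were Btrc (0.13 at 1000 ppm, unadjusted p = 0.0389) and Timeless (-0.14 at 600 ppm, unadjusted p = 0.0967), with limma adjusted p of 0.535 and 0.996. Btrc encodes an F-box protein that marks PER proteins for degradation.

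Of 15 genes listed as outputs of the clock or as glucocorticoid-induced genes, all passed the filter and 0, 0 and 0 passed the threshold of fold and unadjusted p at the 3 doses. At an unadjusted p under 0.05 by limma there were 0, 1 and 0 (4.35%, 8.97% and 6.95% of all tested). This 1 was Por, a cytochrome P450 reductase, with a difference of 0.28 (SE 0.09, adjusted p = 0.516) at 1000 ppm. Wee1, a cell-cycle kinase with E-boxes in its promoter, differed by 0.33 (SE 0.17, adjusted p = 0.746) and Tspan4 by 0.27 (SE 0.15, adjusted p = 0.757) at 1500 ppm. Lonrf3 differed by 0.21 and Por by 0.18 at 600 ppm (adjusted p = 0.996 for both), and Nampt by -0.12 at 1000 ppm (adjusted p = 0.71). Between the sexes, limma called 4 of the 15, each higher in males, against 24.8% of all tested. Among them were Fkbp5, a glucocorticoid-induced chaperone (1.93, SE 0.17, adjusted p = 3.82e-07), and Zbtb16 (1.73, SE 0.23, adjusted p = 3.68e-05).

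**Figure D5:**
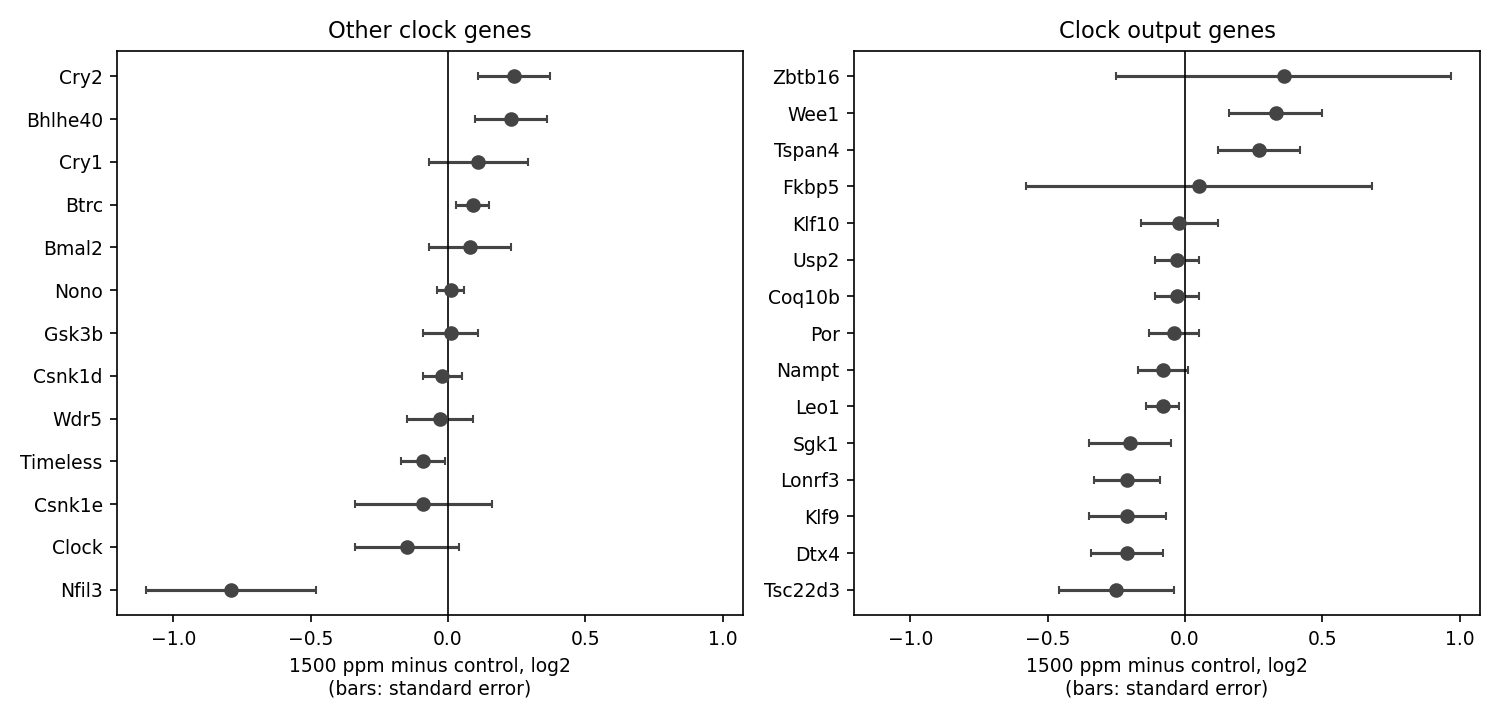
Difference between 1500 ppm and control, 6 rats against 6, on the log2 scale with its standard error, for other clock genes (left) and clock output genes (right). Of the genes plotted, Nfil3 at -0.79 lies farthest from 0.

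Some markers of other cells and of handling passed the threshold at a dose, and their part in the clock genes' levels was not tested. Of the lung and T cell markers 0 passed at any dose. The summed level of the 10 immediate early genes, in multiples of the array's 75th percentile, was 42.6 to 120 in control and 34.0 to 56.1 at 1500 ppm. On slide 5 it was 36.3 to 72.8, and on slides 1 and 3 it was 42.6 to 77.4 and 52.1 to 66.9. Of these 10 genes, 5 passed the threshold as lower at 1500 ppm (Btg2, Fos, Jun, Junb and Nr4a1), against 0.531% of all tested. By limma, 0 of the 10 had an adjusted p under 0.05 there. The 5 heart muscle markers that passed the filter ranged from 2.91 to 35.1 in control, 4.41 to 58.7 at 600 ppm, 7.89 to 122 at 1000 ppm and 3.02 to 124 at 1500 ppm. Of these 5 markers, 3 passed the threshold as higher at 1000 ppm, against 1.63% of all tested in either direction, and 0 had a limma adjusted p under 0.05. T cell markers ranged from 1.71 to 3.85 in control and 1.88 to 3.78 at 1500 ppm, and skeletal muscle markers from 0.293 to 0.629 and 0.368 to 2.05. Erythroid markers ranged from 257 to 385 and 217 to 353, adipose markers from 1.01 to 1.96 and 1.38 to 7.56, neutrophil markers from 1.87 to 8.16 and 2.44 to 7.74 and lung markers from 559 to 639 and 518 to 656. At 1000 ppm 2 of 3 skeletal muscle (Acta1 and Ckm), 1 of 3 adipose (Adipoq) and 1 of 2 neutrophil markers (S100a8) passed as higher, against 1.63% of all tested in either direction. At 1500 ppm 1 of 3 adipose markers (Cfd) passed as higher and 1 of 4 erythroid markers (Alas2) as lower, against 0.701% and 0.531% of all tested. Within females, 5 of 5 heart muscle markers passed as higher at 1000 ppm, against 4.71% of all tested in either direction. At 1500 ppm 3 of 3 adipose markers passed as higher in females and 6 of 10 immediate early genes as lower, against 5.59%. By limma, 0, 0 and 1 had an adjusted p under 0.05. In males the counts past the threshold were 0, 0 and 1, against 2.22% at 1000 ppm and 4.8% at 1500 ppm. Heart muscle medians were 98.2 on slide 6 and 4.92 on slide 2.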

How the data were processed

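Total lung RNA from 24 rats, labelled with Cy3, was hybridised to Agilent rat arrays, 1 array per rat. The deposited intensities are the authors' Feature Extraction processed signals (version 11.5.1.1 per the submitters' processing notes), with background removed and without scaling across arrays. A deposited summary table matched them within 0.1% for 99.69% or more of the probes of every array. Array number limits precision, not read depth, and no noncontrol spot was saturated. Nothing says that RNA was pooled, and a p-value measures the spread between rats. Within each sex, all control rats lay on 1 slide and all high-dose rats on another. For interactions and within-sex comparisons without a slide block, that spread takes in variation between slides only through the low-dose and middle-dose rats. It may therefore understate the variation between slides.

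Control and outlier spots were left out, spots of a probe were averaged (42877 spots, 30367 probes), and log2 signals were taken minus the array's 75th percentile. Where all spots of a probe were flagged as outliers, their mean was kept (3 to 57 probes per array). Probes were named by accession through RefSeq genes (GRCr8), which named 60.4% of them. Probes well above background in 5 of 6 arrays of any group entered the fit, with a gene represented by its brightest probe (21264 tested). limma 3.58.1 in R 4.3.3 was fitted to all arrays with Benjamini-Hochberg adjustment over all tested, with a threshold of 1.5-fold and an unadjusted p under 0.05, as the study used, or an adjusted p under 0.05. The fits were checked on simulated data with independent arrays and no slide effect, so the check does not cover the part of the slide.

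The members and the lists (other clock, clock output, immediate early and marker genes) were chosen with earlier results of these data known. All members were named. Of the other lists, those named passed the threshold at a dose or were the 2 with the smallest p there, with Clock, Cry1, Cry2 and Hlf, and others are named where a count is broken down. One listed gene is not reported here. For likeness, the 5 highest and 5 lowest correlations were named. Alternatives were other normalizations, background corrections and filters, the methods' t-test, sex or slide in the fit, array weights, each probe counted, single-sex fits and correlations within sets of rats (both added after seeing the data), and leaving out each rat.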

Additional observations from a re-analysis of the deposited data

Results flagged for a closer look

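Nr1d1 is listed because its difference between 1500 ppm and control was not the same in the sexes: the interaction was -3.73 on the log2 scale (females minus males, SE 0.68, limma adjusted p = 0.00453). The control males, at -2.94, -4.70 and -2.57, were the lowest 3 rats. Per1 is listed for the same reason, with an interaction of 0.68 (SE 0.18, limma adjusted p = 0.0343), and so is Cry1, with 1.07 (SE 0.29, limma adjusted p = 0.0365). No slide held both control and 1500 ppm rats, and the part of the slide in these 3 differences was not tested beyond the block fits. No single rat stood far enough from its group in any of the 40 sets of 6 values (10 members in 4 groups) to pass Dixon's critical value, which chance passes in about 1 of 20 groups.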

How the results depend on the processing

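No paired analysis was possible because the rat numbers in the labels are unique and no number is shared between groups. Counts of members past the threshold at 1500 ppm (8) became 0 with the slide as a fixed block, 5 with it as a random block and 4 in females only. With every probe counted, 13 of the members' 16 probes passed. At 1000 ppm the count of 1 became 0 by the methods' t-test, with control and 1 dose only, with the slide as a fixed block, with array weights and in females only, and 2 with the authors' table without scaling and in males only. At 600 ppm it was 1 in males only. Of the other clock genes, 0 passed at 1500 ppm with the slide as a fixed block or array weights. Of the output genes, 1 passed at 600 ppm with sex as a covariate or array weights, and 1 at 1500 ppm with array weights or in females only. The 3 members that differed by sex became 1 with the authors' table without scaling, the methods' t-test or the slide as a random block, and 0 with normexp. With every probe counted, 7 of the 16 probes differed by sex. The 2 interactions at 1500 ppm became 1 with the authors' table without scaling, normexp, the slide as a random block or array weights, and 0 with the slide as a fixed block.

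The direction reversed with the slide as a fixed block for Dbp (-0.169), Per2 (-0.512) and Ciart (-0.222) at 1500 ppm, in females only for Nr1d1 (-0.176 at 1000 and -0.333 at 1500 ppm), on the second probe of Npas2 (0.179) and with normexp for the interaction of Per1 (-0.264). The cause was not tested. The correlation of Dbp with Bmal1 over the 24 arrays (-0.955) was -0.945 after subtracting dose and sex means, -0.838 with the authors' table without scaling, -0.856 after subtracting slide means, -0.989 in males only and -0.775 in the 8 males of the first 2 male slides. The values over the 24 arrays and in males only pool the 2 clusters of males in Dbp.

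With each rat left out, the members past the threshold ranged from 0 to 2 at 1000 ppm and stayed at 0 at 600 ppm and 8 at 1500 ppm, those with a sex difference from 2 to 4, those with an interaction from 1 to 2 at 1500 ppm and 0 at the other doses, and the correlation from -0.97 to -0.951. The other clock genes stayed at 0, 0 and 1 and the output genes at 0.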
